A study of Mus musculus with 2 samples.

Results

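The genes described here drive entry into S phase and copy DNA: 51 genes of origin licensing, the replication fork, nucleotide synthesis, chromatin replication and the G1/S switch. They were chosen by symbol, by a rule that uses no measured value but was set with earlier results of these data known, from the 14339 named genes of 1 expression table, and all 51 were found. The table came from mouse primary hepatocytes, liver cells put into culture, given ClpP siRNA in one group and siRNA against green fluorescent protein (GFP siRNA, the control) in the other. ClpP is the proteolytic subunit of the mitochondrial matrix protease ClpXP, and the design text names Lipofectamine, a cationic lipid, as the carrier of the siRNA. Each group held 1 library of poly-A RNA, so both groups share the cell type and a transfection with siRNA, and no difference between them has a replicate check, a standard error or a p-value. The targeted gene Clpp had a level of 9.32 FPKM, the authors' measure of fragments per transcript length and library size, with ClpP siRNA and 45.1 FPKM with GFP siRNA. Strain, sex and age of the animals, siRNA dose and culture time are not given in the sources used here.

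Hepatocytes of the adult liver are mostly out of the cell cycle and can return to it after loss of liver tissue or, in part, when put into culture. On that return, D-type cyclins with Cdk4 and cyclin E with Cdk2 phosphorylate the retinoblastoma protein and release E2F transcription factors, which switch on genes of DNA synthesis. The origin recognition complex, Cdc6 and Cdt1 load the MCM helicase on DNA in G1. In S phase Cdc45 and GINS turn it into the active helicase, behind which polymerases, clamp loader and clamp work. Transcripts of this kind are scarce in resting cells.

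The promoters of a few of these genes are shown because a larger share of these genes than of all genes holds the E2F sequence, while genes with the same letters differ in how they behaved. RefSeq windows (build GRCm38.p6, 250 bases before to 50 after a gene's start) were available for 41 of the 51 genes. The letters searched, on both strands, were TTTCCCGC, TTTGGCGC, TTTCGCGC and TTTGCCGC, exact forms of the E2F sequence. Looser forms were not searched. At least 1 match lay in the windows of 15 of the 41 genes (36.6%), against 4.84% of the 8930 genes with a window and a mean level of at least 1 FPKM, and 2.60% of all 27025 genes with windows. The 4 windows below belong to subunits of the MCM helicase. Each is given 5′ to 3′ on the gene's own strand with the matches in capitals, and overlapping matches run together in those of Mcm5 and Mcm6.
Mcm5: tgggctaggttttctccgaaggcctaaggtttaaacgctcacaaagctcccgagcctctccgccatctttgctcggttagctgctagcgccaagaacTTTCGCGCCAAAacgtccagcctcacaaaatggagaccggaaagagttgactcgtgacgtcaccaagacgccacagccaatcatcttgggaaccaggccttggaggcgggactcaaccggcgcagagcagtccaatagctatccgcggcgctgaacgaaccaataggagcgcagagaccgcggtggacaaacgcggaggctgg
Mcm3: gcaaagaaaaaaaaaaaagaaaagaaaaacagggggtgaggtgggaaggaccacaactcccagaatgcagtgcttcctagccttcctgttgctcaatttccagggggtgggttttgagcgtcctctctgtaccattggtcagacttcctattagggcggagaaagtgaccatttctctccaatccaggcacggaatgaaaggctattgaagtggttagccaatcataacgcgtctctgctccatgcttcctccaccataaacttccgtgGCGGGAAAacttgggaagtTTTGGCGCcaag
Mcm6: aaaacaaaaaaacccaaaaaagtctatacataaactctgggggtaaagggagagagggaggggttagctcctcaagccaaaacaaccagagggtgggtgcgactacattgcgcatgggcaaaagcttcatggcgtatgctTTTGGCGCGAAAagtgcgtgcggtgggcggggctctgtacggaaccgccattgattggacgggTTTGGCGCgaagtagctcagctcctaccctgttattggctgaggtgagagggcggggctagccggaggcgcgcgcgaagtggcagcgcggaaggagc
Mcm7: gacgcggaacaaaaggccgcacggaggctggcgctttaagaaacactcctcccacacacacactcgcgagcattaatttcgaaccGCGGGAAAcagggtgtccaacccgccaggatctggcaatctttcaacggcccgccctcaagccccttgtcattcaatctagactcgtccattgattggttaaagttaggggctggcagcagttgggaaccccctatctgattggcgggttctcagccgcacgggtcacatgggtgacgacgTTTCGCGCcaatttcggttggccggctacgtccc
The Mcm5 window is chr8:75109259-75109558 on the plus strand, with 2 matches between positions -153 and -142 from the start. The Mcm3 window is chr1:20820263-20820562 on the minus strand, with 2 matches between positions 20 and 46. The Mcm6 window is chr1:128359656-128359955 on the minus strand, with 3 matches between positions -110 and -40. The Mcm7 window is chr5:138171834-138172133 on the minus strand, with matches at -165 to -158 and at 17 to 24. Mcm7 has another window in the table, which is not shown.

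Another 3 windows are of the gene with the highest difference between the libraries (Tk1), of a chromatin regulator among the highest (Uhrf1) and of the gene with the lowest (Cdk4). In the windows of Uhrf1 and Tk1 capitals mark the E2F letters, of which Tk1 has no match. In that of Cdk4, which has no E2F match either, they mark CACGTG, the E-box to which Myc and related factors can bind. The E-box was searched after the value of Cdk4 had been seen.
Uhrf1: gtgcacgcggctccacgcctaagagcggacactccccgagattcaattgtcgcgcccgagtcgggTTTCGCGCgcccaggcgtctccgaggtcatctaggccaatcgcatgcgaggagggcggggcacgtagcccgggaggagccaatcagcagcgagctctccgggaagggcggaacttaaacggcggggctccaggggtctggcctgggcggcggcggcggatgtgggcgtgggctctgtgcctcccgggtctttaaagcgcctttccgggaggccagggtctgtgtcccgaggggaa
Tk1: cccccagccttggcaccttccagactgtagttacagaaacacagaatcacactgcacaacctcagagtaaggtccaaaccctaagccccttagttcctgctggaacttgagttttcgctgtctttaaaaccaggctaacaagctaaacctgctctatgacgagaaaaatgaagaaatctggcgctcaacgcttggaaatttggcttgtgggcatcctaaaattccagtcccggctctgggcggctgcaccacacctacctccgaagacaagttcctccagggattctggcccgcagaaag
Cdk4: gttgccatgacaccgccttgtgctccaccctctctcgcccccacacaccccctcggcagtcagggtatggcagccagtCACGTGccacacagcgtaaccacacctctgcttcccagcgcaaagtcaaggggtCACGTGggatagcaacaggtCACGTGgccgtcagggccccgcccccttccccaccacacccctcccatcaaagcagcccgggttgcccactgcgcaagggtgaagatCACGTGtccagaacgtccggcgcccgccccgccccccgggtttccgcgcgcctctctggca
The Uhrf1 window is chr17:56304063-56304362 on the plus strand, 1 of 2 windows of that gene, with a match at -185 to -178. The Tk1 window is chr11:117825965-117826264 on the minus strand. The Cdk4 window is chr10:127063285-127063584 on the plus strand, with 4 copies of CACGTG, the first at -172 and the last ending at -6. CACGTG lay in 8 of the 41 member genes' windows (19.5%) and in 12.2% of the 8930 genes. A match describes the letters in the window and shows neither a bound factor nor a cause.

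Most of the 51 genes had a higher level with ClpP siRNA, by a moderate amount. Each gene is given a log2 ratio, the value of log2(FPKM + 1) with ClpP siRNA less that with GFP siRNA, which is closer to 0 than the plain ratio for genes of low level. Above 0 were 48 of the 51, and the median was 0.48. For 49 genes the mean FPKM of both libraries was at least 1, the level used for counts. Of these 46 lay above 0 (93.9%), against 49.3% of all 11087 genes of that level, whose median was -0.01. Past 2-fold, a log2 ratio of at least 1 in size, 7 of the 49 were higher (14.3%), against 5.19% of all genes, and 0 were lower, against 2.04%. A log2 ratio of at least 0.5 was reached by 22 of the 49 (44.9%), against 12% of all genes. Of the 49, 5 were under 1 FPKM in the GFP siRNA library (Mcm10, Cdc45, Gins3, Pole and Ccne2); the other 44 held 5 genes past 2-fold, with a median of 0.47. The 2-fold limit is a rule of size with no statement about chance.

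The median was alike in 3 classes of level. The median log2 ratio was 0.46 for the 12 genes with a mean of 1 to 5 FPKM, 0.49 for the 32 at 5 to 20 FPKM and 0.46 for the 5 above 20 FPKM. Past 2-fold and higher were 2, 5 and 0 genes of these classes, where the shares among all genes of the same classes were 6.01%, 3.8% and 6.14%. The summed level of the 49 genes was 620 FPKM with ClpP siRNA and 514 with GFP siRNA. Cdk4 alone held much of it, and without Cdk4 the sums were 544 FPKM with ClpP siRNA and 373 with GFP siRNA, a ratio of 1.46. In bulk RNA, more cells in the cycle and more of these transcripts per cell cannot be told apart.

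**Figure D1:**
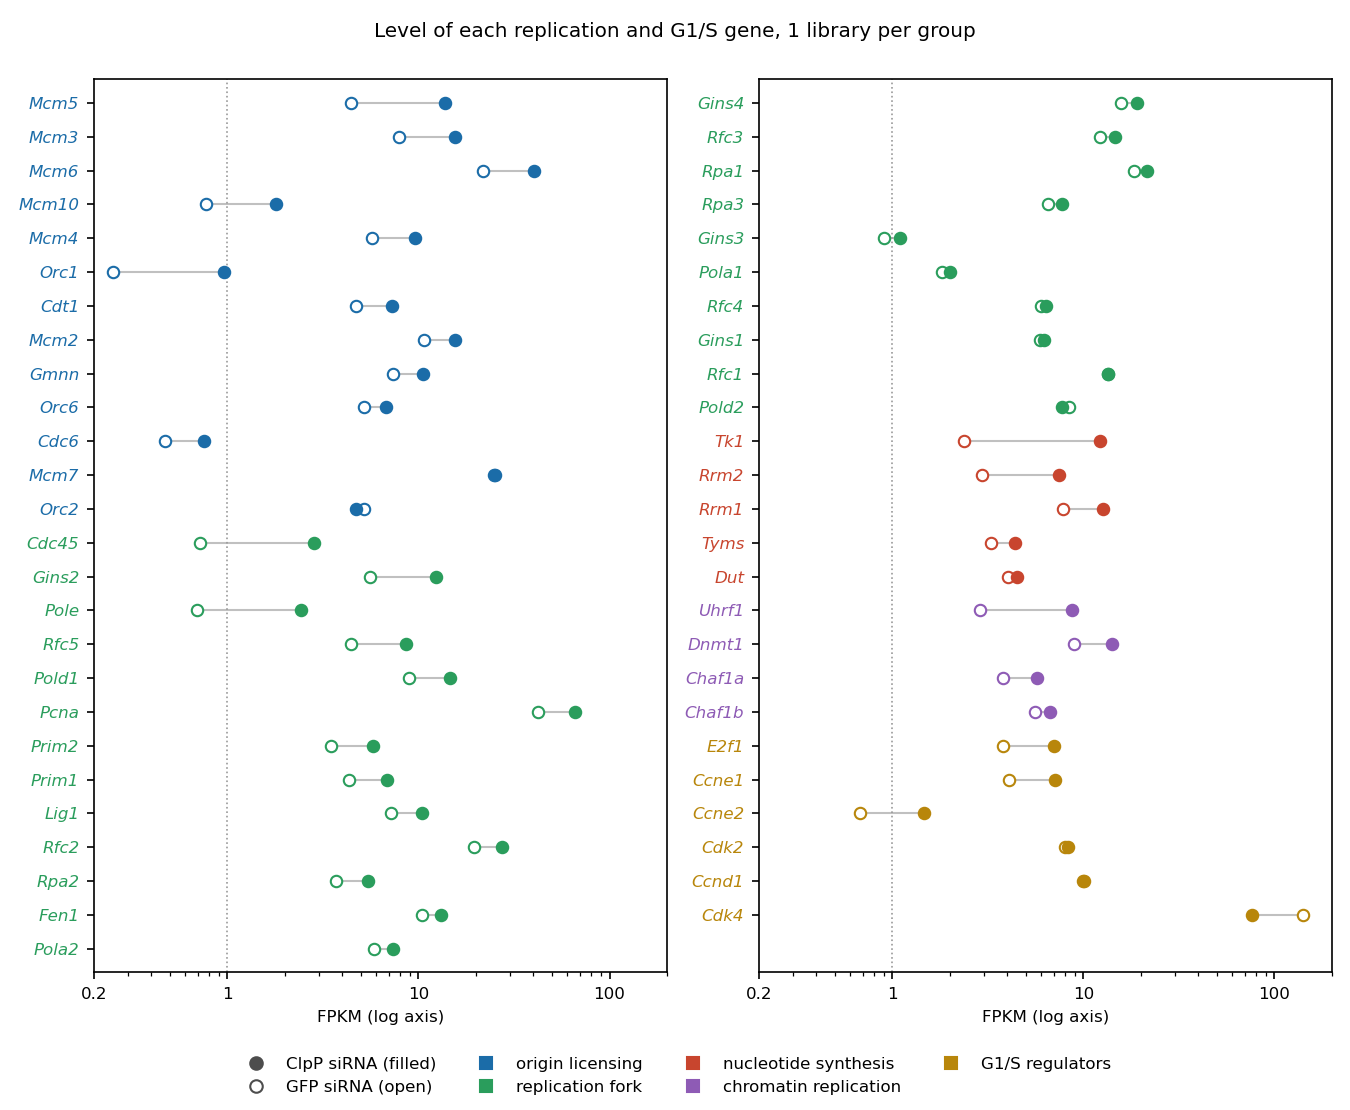
Level in FPKM (log axis) of each of the 51 genes, with filled points for the ClpP siRNA library and open points for the GFP siRNA library, coloured by role and sorted by log2 ratio within a role. The filled point lies to the right for nearly every gene; it lies to the left for Cdk4, Pold2 and Orc2, and the points of Mcm7, Rfc1 and Ccnd1 nearly coincide.

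Among the loaders of the helicase no log2 ratio was past 2-fold, and the transcripts of Orc1 and Cdc6 were scarce. Orc1, the subunit of the origin recognition complex that comes and goes with the cycle in human cells, had 0.960 FPKM with ClpP siRNA and 0.251 with GFP siRNA. Cdc6, which joins the complex in G1, had 0.750 FPKM with ClpP siRNA and 0.469 with GFP siRNA. Both were under the mean of 1 FPKM, at means of 0.606 and 0.609, while Gins3 (1.002) and Ccne2 (1.07) lay just above it. Orc2, a core subunit, had 4.72 FPKM with ClpP siRNA and 5.21 with GFP siRNA, a log2 ratio of -0.12. Orc6, the smallest subunit, had 6.75 FPKM with ClpP siRNA and 5.22 with GFP siRNA (0.32). The remaining core subunits, which were not among the 51, had ratios of -0.18 (Orc3), -0.50 (Orc4) and 0.15 (Orc5). Cdt1, the loading factor that is destroyed in S phase, had 7.23 FPKM with ClpP siRNA and 4.68 with GFP siRNA, a log2 ratio of 0.53. Its inhibitor geminin (Gmnn) had 10.6 FPKM with ClpP siRNA and 7.35 with GFP siRNA (0.48), so the loader and its brake stood in nearly the same proportion in both libraries.

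The 6 subunits of the MCM helicase did not shift by a common amount, although they form a ring with 1 copy of each. Mcm5 had 13.7 FPKM with ClpP siRNA and 4.43 with GFP siRNA, a log2 ratio of 1.43 and the one subunit past 2-fold. Mcm3 had 15.6 FPKM with ClpP siRNA and 7.92 with GFP siRNA (0.89), and Mcm6, the most abundant subunit with ClpP siRNA, 40.2 FPKM with ClpP siRNA and 21.8 with GFP siRNA (0.85). Mcm4 had 9.54 FPKM with ClpP siRNA and 5.71 with GFP siRNA (0.65). Mcm2 had 15.5 FPKM with ClpP siRNA and 10.7 with GFP siRNA (0.50). Mcm7 was nearly level at 25.2 FPKM with ClpP siRNA and 24.9 with GFP siRNA (0.01), a value whose sign turned under quantile and upper quartile scaling (-0.04 and -0.06). Mcm7 was the most abundant of the 6 with GFP siRNA, and Mcm5 the least. The highest subunit exceeded the lowest 4.22-fold with ClpP siRNA and 5.63-fold with GFP siRNA. The windows of Mcm5 and Mcm7 printed above each hold 2 E2F matches, while their ratios lie at opposite ends of the complex. Mcm10, which is no part of the ring and helps to start the fork, had 1.80 FPKM with ClpP siRNA and 0.768 with GFP siRNA (0.67).

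Cdc45 and Gins2, partners of the MCM ring in the active helicase, were higher past 2-fold. Cdc45 had 2.83 FPKM with ClpP siRNA and 0.722 with GFP siRNA, a log2 ratio of 1.15. Gins2 had 12.4 FPKM with ClpP siRNA and 5.57 with GFP siRNA (1.03). The other GINS subunits had ratios nearer 0. Gins4 had 19.2 FPKM with ClpP siRNA and 15.7 with GFP siRNA (0.27), and Gins3 1.10 FPKM with ClpP siRNA and 0.909 with GFP siRNA (0.13). Gins1 had 6.20 FPKM with ClpP siRNA and 5.91 with GFP siRNA (0.06), which turned to -0.01 under upper quartile scaling. GINS also holds 1 copy of each subunit, and its highest level exceeded its lowest 17.5-fold with ClpP siRNA and 17.3-fold with GFP siRNA. In the mouse annotation GENCODE M21, 70.7% of the exon bases of Gins2 overlap exons of Gse1, which had 14.5 FPKM with ClpP siRNA and 13.8 with GFP siRNA (0.06). Reads from such shared bases may be assigned to either gene, and the effect on Gins2 was not tested.

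The DNA polymerases differed by subunit. Pole, the catalytic subunit of the leading strand polymerase epsilon, had 2.42 FPKM with ClpP siRNA and 0.692 with GFP siRNA, a log2 ratio of 1.02. Pold1, the catalytic subunit of the lagging strand polymerase delta, had 14.6 FPKM with ClpP siRNA and 8.88 with GFP siRNA (0.66), while its accessory subunit Pold2 had 7.74 FPKM with ClpP siRNA and 8.45 with GFP siRNA (-0.11). Polymerase alpha and primase, which lay down the primers, differed between primase and polymerase subunits. The primase subunits Prim2 (5.78 FPKM with ClpP siRNA and 3.49 with GFP siRNA) and Prim1 (6.85 FPKM with ClpP siRNA and 4.31 with GFP siRNA) had log2 ratios of 0.59 and 0.56. The polymerase subunits Pola2 (7.36 FPKM with ClpP siRNA and 5.88 with GFP siRNA) and Pola1 (2.0 FPKM with ClpP siRNA and 1.82 with GFP siRNA) had 0.28 and 0.09.

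Pcna, the sliding clamp that holds polymerases on DNA, was the most abundant fork gene, with 65.8 FPKM with ClpP siRNA and 42.4 with GFP siRNA (0.62). Of the clamp loader, Rfc5 had 8.62 FPKM with ClpP siRNA and 4.43 with GFP siRNA (0.83) and Rfc2 27.3 FPKM with ClpP siRNA and 19.5 with GFP siRNA (0.46). Rfc3 had 14.7 FPKM with ClpP siRNA and 12.3 with GFP siRNA (0.24), and Rfc4 6.36 FPKM with ClpP siRNA and 5.99 with GFP siRNA (0.08). Rfc1, the large subunit specific to this loader, had 13.5 FPKM with ClpP siRNA and 13.4 with GFP siRNA (0.01), and was below 0 under quantile and upper quartile scaling (-0.03 and -0.06). RPA coats single-stranded DNA. Its subunit Rpa2 had 5.44 FPKM with ClpP siRNA and 3.72 with GFP siRNA (0.45), Rpa1 had 21.5 FPKM with ClpP siRNA and 18.3 with GFP siRNA (0.22), and Rpa3 had 7.71 FPKM with ClpP siRNA and 6.56 with GFP siRNA (0.20). Lig1, which seals Okazaki fragments, had 10.4 FPKM with ClpP siRNA and 7.14 with GFP siRNA (0.48). Fen1, the nuclease that trims them, had 13.2 FPKM with ClpP siRNA and 10.4 with GFP siRNA (0.32). Over the 23 fork genes the median was 0.32, with 3 higher past 2-fold (13%), against 5.19% of all genes.

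Supply of DNA building blocks held the highest value of all 51 genes. Tk1, the thymidine kinase of the cytosol that is made in S phase, had 12.2 FPKM with ClpP siRNA and 2.36 with GFP siRNA, a log2 ratio of 1.97 and a plain ratio of 5.14. It ranked 169 among the 11087 genes. Ribonucleotide reductase makes deoxynucleotides, and its S phase subunit Rrm2 had 7.48 FPKM with ClpP siRNA and 2.94 with GFP siRNA (1.11), while the large subunit Rrm1 had 12.6 FPKM with ClpP siRNA and 7.85 with GFP siRNA (0.62). Tyms, thymidylate synthase, had 4.38 FPKM with ClpP siRNA and 3.27 with GFP siRNA (0.33). Dut, which keeps uracil out of DNA, had 4.50 FPKM with ClpP siRNA and 4.04 with GFP siRNA (0.12). The salvage kinase for thymidine thus differed more than the enzyme that makes thymidylate anew. Pcna and Tyms have annotated pseudogene copies in GENCODE M21, with which reads can be exchanged.

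Genes that copy chromatin and its marks were above 0 in all 4 cases, against 49.3% of all genes. Uhrf1, which reads half-methylated DNA behind the fork, had 8.73 FPKM with ClpP siRNA and 2.89 with GFP siRNA, a log2 ratio of 1.32. Dnmt1, the methyltransferase that it brings to the fork, had 14.1 FPKM with ClpP siRNA and 8.96 with GFP siRNA (0.60). The histone chaperone CAF-1 deposits new histones, and its subunits Chaf1a and Chaf1b had 5.70 and 6.69 FPKM with ClpP siRNA, against 3.81 and 5.60 FPKM with GFP siRNA (0.48 and 0.22). For Chaf1a, 33.6% of the exon bases overlap Ubxn6, which had a ratio of 0.03. Exon overlap with another gene also covers 29.4% of Ccnd1, 24.0% of Orc2, 19.1% of Rfc2, 15.4% of Rfc5, 12.1% of Rfc4 and 10.5% of Ccne2. Smaller shares are those of Orc6 (9.57%), Mcm7 (8.71% with Ap4m1 and 1.74% with Cops6), Lig1 (6.16%), Tk1 (5.76%), Fen1 (5.37%) and Cdc45 (2.31%). The levels of these genes are uncertain, by an amount that the share of bases does not bound and that was not tested. The partner was far more abundant for Rfc5 (Wsb2, 90.7 FPKM with ClpP siRNA and 86.1 with GFP siRNA), Rfc4 (Eif4a2, 39.2 FPKM with ClpP siRNA and 45.9 with GFP siRNA) and Ccne2 (Ints8, 11.5 FPKM with ClpP siRNA and 13.2 with GFP siRNA). With ClpP siRNA and GFP siRNA in turn, it was so too for Chaf1a (Ubxn6, 42.5 and 41.5 FPKM) and Orc6 (Vps35, 61.5 and 71.2 FPKM). Fen1 (Tmem258, 85.5 and 97.0 FPKM) and Mcm7 (Cops6, 122 and 106 FPKM) also had such partners. Afmid, the partner of Tk1, had 8.42 FPKM with ClpP siRNA and 7.49 with GFP siRNA.

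**Figure D2:**
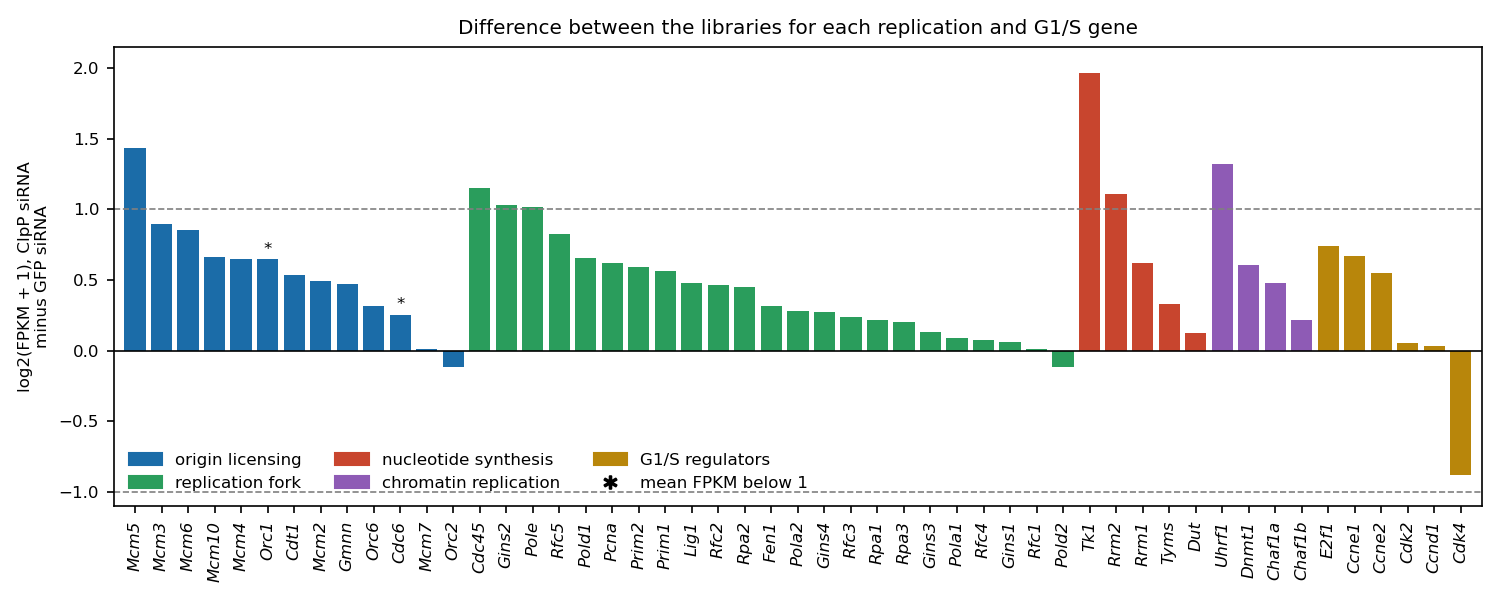
Log2 ratio of each of the 51 genes, ClpP siRNA minus GFP siRNA, coloured by role; dashed lines mark 2-fold and asterisks the 2 genes of mean FPKM below 1. The bars past the upper line are Tk1, Mcm5, Uhrf1, Cdc45, Rrm2, Gins2 and Pole, and the deepest bar below 0 is Cdk4.

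The regulators of G1/S did not move together. Cdk4, the kinase partner of D-type cyclins, had the highest level of the 51 genes in both libraries and was the one with a log2 ratio under -0.5. Its level was 76.2 FPKM with ClpP siRNA and 141 with GFP siRNA, a log2 ratio of -0.88 that is short of 2-fold, and 2.62% of the 11087 genes had a lower ratio. Under the other scalings and pseudocounts its ratio lay between -0.96 and -0.85. Cdk4 shares 26.7% of its exon bases with Tspan31, which had 99.7 FPKM with ClpP siRNA and 77.2 with GFP siRNA (0.36). The 2 overlapping genes thus differed in opposite directions. Reads from the shared bases may be assigned to either gene, so the level of Cdk4 is uncertain too, and the effect was not tested. Ccnd1, cyclin D1, the partner of Cdk4, had 10.1 FPKM with ClpP siRNA and 9.89 with GFP siRNA (0.03). Cdk2 had 8.33 FPKM with ClpP siRNA and 7.98 with GFP siRNA (0.06). The signs of both turned under upper quartile scaling (-0.04 and -0.01).

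The partners of Cdk2 and the E2F factor differed more than the kinase. Ccne1, cyclin E1, had 7.13 FPKM with ClpP siRNA and 4.10 with GFP siRNA (0.67). Ccne2, cyclin E2, had 1.46 FPKM with ClpP siRNA and 0.679 with GFP siRNA (0.55). E2f1, which activates S phase genes and is itself an E2F target, had 7.0 FPKM with ClpP siRNA and 3.78 with GFP siRNA (0.74).

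**Figure D3:**
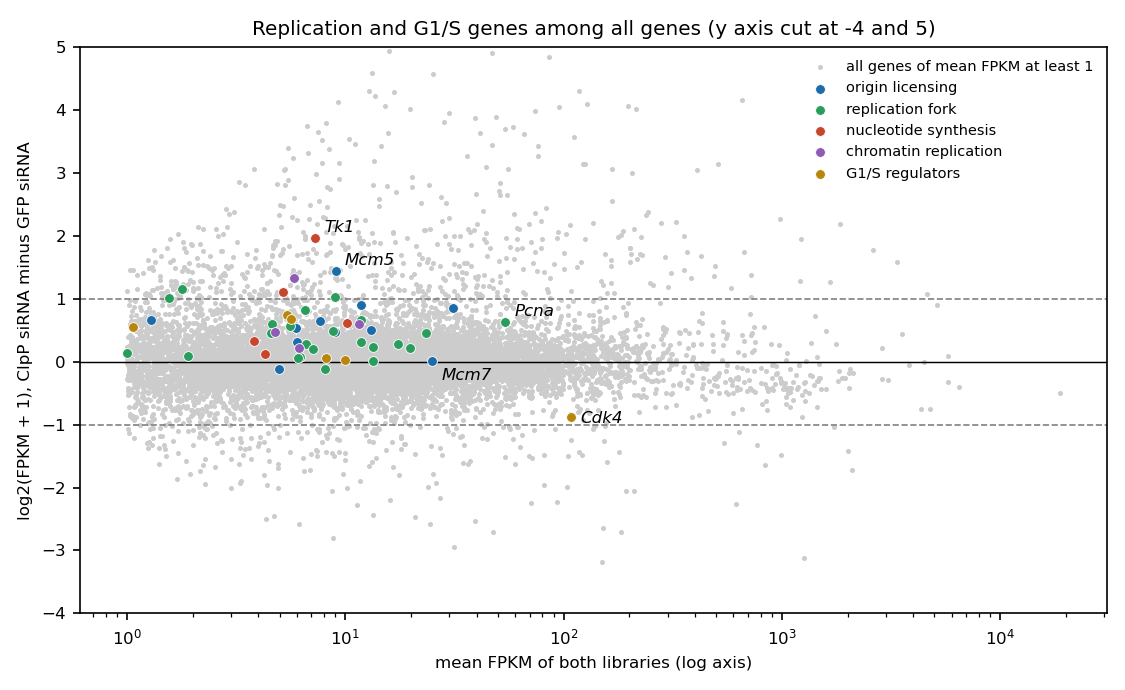
Log2 ratio against mean FPKM (log axis) for the 11087 genes of mean FPKM at least 1 (grey) and the 49 genes described here that pass that level (coloured by role), with dashed lines at 2-fold. The coloured points spread mostly between 0 and 1, with Tk1 highest at 1.97 and Cdk4 lowest at -0.88.

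Related genes outside the 51 had shares near those of all genes. Of 93 listed genes of the same pathways, 80 passed 1 FPKM, and 42 of these lay above 0 (52.5%), against 49.3% of all genes. Past 2-fold 3 were higher (3.75%), against 5.19% of all genes, and 0 were lower, or 1 (Myc) under 4 of the other settings. The median was 0.04. By plain ratio, 8 of the 80 were at 2 or above and 1 at 0.5 or below, against 750 and 381 of all 11087 genes. With no filter, 3 of the 93 were past 2-fold higher and 0 lower by log2 ratio. Some genes under a mean of 1 FPKM had large plain ratios: Exo1 (6.38), E2f2 (3.62), Ticrr (3.06), Clspn (3.05) and Recql4 (3.04). Cdkn1c (0.367) and Cdkn2a (0.131) went the other way. The share above 0 ran from 33.3% (E2F and retinoblastoma family) to 66.7% (other chromatin assembly) and 80% (other fork proteins). The remaining E2F and retinoblastoma family genes had a median of -0.09 over 15 genes, none past 2-fold, with Rb1 itself at -0.50 (1.77 FPKM with ClpP siRNA and 2.92 with GFP siRNA). Other G1 cyclins and kinases had a median of -0.15 over 10 genes. Of these Ccna2, cyclin A2 of S phase and G2, was higher at 7.37 FPKM with ClpP siRNA and 2.05 with GFP siRNA (1.46). Myc is a transcription factor that binds the E-box and is known to act on Cdk4 in other cells. It was named after its value was seen, and a link from it to Cdk4 was not tested. It had 29.4 FPKM with ClpP siRNA and 59.7 with GFP siRNA, a log2 ratio of -0.997 and a plain ratio of 0.493. It lies at the 2-fold limit, past it under quantile and upper quartile scaling (-1.07 each), equal totals (-1.005) and a pseudocount of 0.1 (-1.02), and short of it under median centring (-0.99) and a pseudocount of 5 (-0.91). Inhibitors of cyclin-dependent kinases had a median of -0.25 over 5 genes, with the largest ratio in size that of Cdkn2c (0.93, 3.62 FPKM with ClpP siRNA and 1.43 with GFP siRNA).

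Further licensing and firing factors had a median of 0.11 over 10 genes, none past 2-fold, and Orc4 had the largest ratio in size. Further fork proteins had 0.17 over 15 genes, and Top2a, the topoisomerase that untangles chromosomes in S phase and mitosis, was higher at 7.57 FPKM with ClpP siRNA and 1.68 with GFP siRNA (1.68). Further genes of nucleotide supply had -0.18 over 13 genes. The one past 2-fold was Samhd1, an interferon-inducible enzyme that breaks deoxynucleotides down, with 23.5 FPKM with ClpP siRNA and 9.63 with GFP siRNA (1.20). Further chromatin assembly genes had 0.32 over 12 genes, with the histone chaperone Asf1b at 0.86 (2.49 FPKM with ClpP siRNA and 0.923 with GFP siRNA).

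Genes of mitosis, which follow replication in the cycle, were set beside these values without a test, since 1 library per group allows none. Higher past 2-fold were 7 of the 49 replication and G1/S genes, whose median over all 51 was 0.48, against 22 of the 27 mitosis genes above 1 FPKM, whose median was 1.39. Of those 27, 8 were under 1 FPKM with GFP siRNA and passed the limit through the ClpP siRNA library; the other 19 held 16 past 2-fold, with a median of 1.42. Among mitosis genes Ccnb2, Birc5 and Plk1 had the largest ratios, at 2.30, 2.06 and 1.92. The ratio of summed levels was 1.21 for the 49 genes and 3.62 for mitosis genes, which summed to 174 FPKM with ClpP siRNA and 48.0 with GFP siRNA. In the GFP siRNA library the median level was 5.71 FPKM for the replication and G1/S genes and 1.47 FPKM for mitosis genes.

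**Figure D4:**
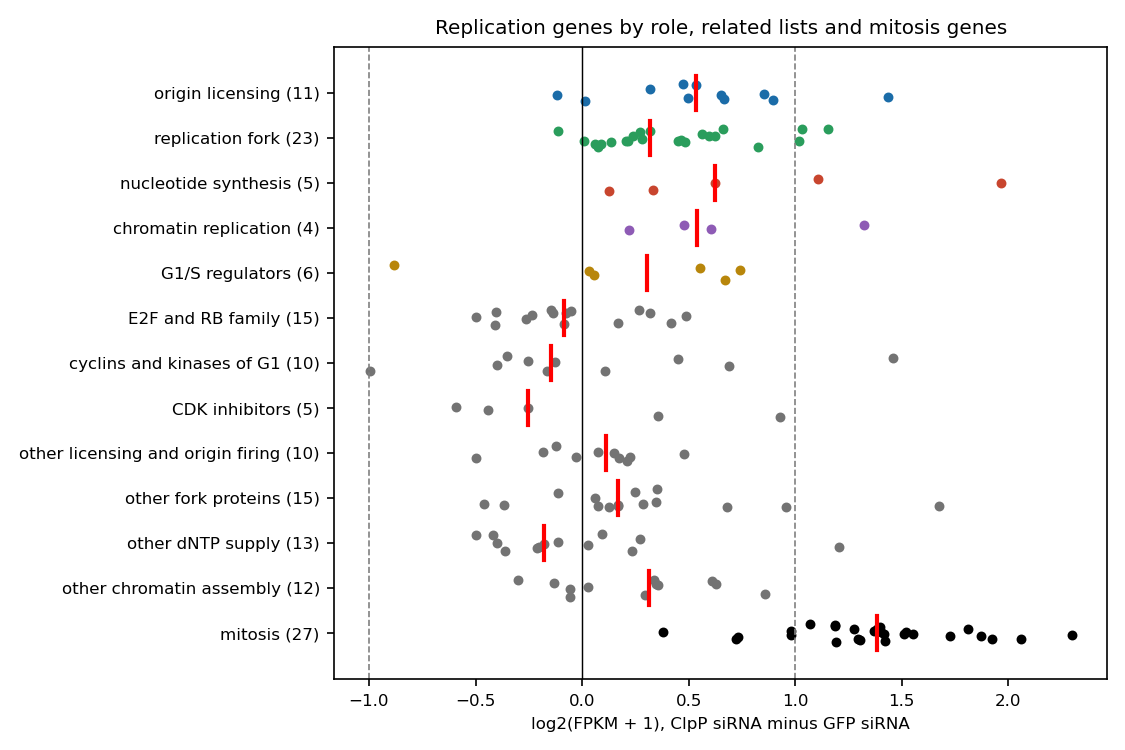
Log2 ratio of each gene (points) and the median (red line) for the 5 roles, 7 lists of related genes and the mitosis list, with the number of genes of mean FPKM at least 1 in brackets and dashed lines at 2-fold. The medians of the 5 roles lie between 0.30 and 0.62, that of mitosis genes at 1.39, and those of the E2F and RB family, other G1 cyclins and kinases, CDK inhibitors and other nucleotide supply below 0.

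Within the 39 genes that had both a promoter window and a mean of at least 1 FPKM, presence of the E2F letters went with little difference in ratio. The median log2 ratio was 0.53 for the 13 genes with a match and 0.39 for the 26 without. The window of E2f1, itself an E2F target, held no match, so genes without one can still be E2F targets. A part of E2F in these ratios was not tested. Past 2-fold were 2 genes with a match (Mcm5 and Uhrf1) and 3 without (Tk1, Cdc45 and Rrm2). Of all 8930 genes, those with a match had a median of 0.05 over 432 genes and those without -0.01. For CCAAT, the sequence bound by NF-Y, 64.1% of the 39 genes and 43.3% of the 8930 had a match, with medians among the 39 of 0.48 with and 0.41 without. For TTTGAA, the cell cycle homology region known from late cell cycle genes, the shares were 15.4% and 14.2%. The 8 genes with CACGTG, a sequence searched because of the value of Cdk4, had a median of 0.30 with Cdk4 and 0.32 without it, and the 31 genes lacking the sequence 0.56. Of all 8930 genes, those with CACGTG had a median of -0.02 over 1086 genes and those without -0.01. No window was available for Ccnd1, Ccne2, Gins1, Gins2, Gins4, Gmnn, Mcm4, Pole, Prim2 and Rfc2.

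The makeup of the cultures was checked in the same table. Most of the 10 hepatocyte markers were present, with Alb at 6245 FPKM with ClpP siRNA and 2952 with GFP siRNA (1.08), and they did not move together. Cyp2e1 was nearly absent, with 0.126 FPKM with ClpP siRNA and 0.130 with GFP siRNA. Of the 9 markers above 1 FPKM, 5 were higher past 2-fold (55.6%), against 5.19% of all genes. The other 4 lay below 0, and the median was 1.01. The 3 largest in size were Cps1 (2.79), Apoa1 (1.75) and Ttr (1.08), and the lowest was Serpina1a at -0.88 (272 FPKM with ClpP siRNA and 500 with GFP siRNA). Markers of endothelial cells, stellate cells and macrophages mostly lay below 0. Endothelial markers summed to 16.2 FPKM with ClpP siRNA and 28.6 with GFP siRNA over 7 genes, with a median of -0.48. The largest ratios in size were those of Pecam1 (-1.36), Cdh5 (-1.20) and Eng (-0.79). Of the 7, 6 lay below 0, Stab1 by little (-0.15), and Oit3 lay above it (0.33). Under a mean of 1 FPKM, the endothelial marker Clec4g was higher, with 0.794 FPKM with ClpP siRNA and 0.190 with GFP siRNA (0.59). Stab2 (-0.64) and Kdr (-0.51), also under that mean, lay below 0. Stellate cell and fibroblast markers summed to 15.4 FPKM with ClpP siRNA and 33.9 with GFP siRNA over 4 genes, with Acta2 at -1.39, Col3a1 at -0.95 and Col1a1 at 0.01. Of 6 macrophage markers above 1 FPKM 5 were below 0, among them Lyz2 (-0.97) and Cd5l (-0.89). Cd68, a lysosomal protein, was the exception at 3.14 and set their sum of 232 FPKM with ClpP siRNA and 38.2 with GFP siRNA. The defining Kupffer cell markers Clec4f and Vsig4 were under 1 FPKM in both libraries. Clec4f had 0.0718 FPKM with ClpP siRNA and 0.777 with GFP siRNA, a plain ratio of 0.0925. Vsig4 had 0.084 FPKM with ClpP siRNA and 0.802 with GFP siRNA, a plain ratio of 0.105. Both had a log2 ratio of -0.73. C1qa, Lyve1 and Col3a1 were under 1 FPKM with ClpP siRNA (0.635, 0.811 and 0.537) and passed the limit through the GFP siRNA library. That weighs the marker counts toward ratios below 0. Cholangiocyte markers summed to 954 FPKM with ClpP siRNA and 1644 with GFP siRNA, with a median of 0.14 over 5 genes. Spp1 set that sum, with 870 FPKM with ClpP siRNA and 1605 with GFP siRNA (-0.88), while 4 of the 5 genes lay above 0. Krt19 had a log2 ratio of 2.27 (50.2 FPKM with ClpP siRNA and 9.58 with GFP siRNA). None of the 11 lymphocyte and neutrophil markers was found in the table, which lists genes above 0 in both libraries only. The part of any of these cells in the replication values was not tested.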

How the data were processed

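Poly-A RNA libraries (Illumina TruSeq kit v2, per the labels' protocols) of 1 ClpP siRNA and 1 GFP siRNA culture were compared. Values were FPKM deposited by the authors, per the file headers. The submitters' processing notes list STAR 2.4.0f1, TopHat2 2.0.13, Bowtie2 2.2.3, Cufflinks 2.2.1, Trimmomatic 0.32 and FastQC 0.10.0, without roles, and the genome build is not given in the sources used here. The authors also deposited log2 values and a signed fold change, treated as a score and not used. For the ClpP siRNA library the log2 values equalled quantile normalized log2(FPKM + 1) within 0.0003. Those of the GFP siRNA library were not compared in this way. The GFP siRNA column is named in the header; the other is an abbreviation taken to mean ClpP siRNA by its letters, with no value used.

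Of 14346 rows, 7 without a gene name (0.0335% of the FPKM in the ClpP siRNA and 0.0475% in the GFP siRNA library) were left out. FPKM totals were 535315 with ClpP siRNA and 532555 with GFP siRNA. FPKM holds no read count, and values reach below 0.001, so the depth is unknown and no counting interval is given. Log2 ratios used a pseudocount of 1, and counts a mean FPKM of at least 1 and a limit of 2-fold. Alternatives were pseudocounts of 0.1 and 5, 4 scalings and other filters. Genes named by rule were all members, Clpp, related-list genes past 2-fold (otherwise the largest in size) and the 3 largest of the mitosis and marker lists. Of the cholangiocyte markers only Krt19 and Spp1 were named. Named outside the rule were Myc, Orc3, Orc5, Alb, Serpina1a, Stab1, Oit3, Clec4f, Vsig4 and genes that overlap a member. So were Clec4g, Stab2, Kdr, Cyp2e1, C1qa, Lyve1, E2f2, Exo1, Ticrr, Clspn, Recql4, Cdkn1c and Cdkn2a. Members and lists were chosen with earlier results of these data known. Exon overlaps came from GENCODE M21, in which 15 of the 51 genes share exon bases with another protein-coding gene. The calculation was tested on simulated data (Python 3.11.15, numpy 2.4.6, pandas 2.3.3).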

Additional observations from a re-analysis of the deposited data

How the results depend on the processing

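With 1 library per group, depth unknown and no replicate left to omit, the values below vary only the processing. No paired analysis was possible because each group holds 1 library. With a pseudocount of 5 in place of 1, the members higher past 2-fold came to 1 (Tk1) in place of 7, their median to 0.28, and all genes past 2-fold to 327 higher and 89 lower, in place of 575 and 226. A larger pseudocount shrinks ratios of low genes by construction. With a pseudocount of 0.1 all genes lower past 2-fold came to 357, and with a mean of at least 5 FPKM, which tests fewer genes, to 142. The count of members higher was 9 with a pseudocount of 0.1, and 5 under quantile scaling, upper quartile scaling and a mean of at least 5 FPKM, with Gins2 and Pole short of 2-fold under both scalings. It was 7 with equal totals, median centring or no filter. The members' median lay between 0.41 and 0.53 under every setting run but the pseudocount of 5. The median of all genes moved by less than 0.1 under each scaling, to -0.07 at most. Clpp lay between -2.26 and -1.81. Of 306 values of single members, 7 changed sign, all from ratios near 0 (Mcm7, Rfc1, Gins1, Ccnd1 and Cdk2), and 13 crossed 2-fold: 10 to below it and 3 to above it (Orc1, Mcm10 and Ccne2, with a pseudocount of 0.1). Of the 80 related genes, those higher past 2-fold came to 7 with a pseudocount of 0.1 and 0 with a pseudocount of 5, in place of 3, and to 1 with a mean of at least 5 FPKM.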
